A study of Mus musculus with 6 samples.

Results

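The guanylate-binding proteins (GBPs) and the immunity-related GTPases (IRGs) are GTP-hydrolysing proteins that interferons switch on. The 10 genes described here are 7 GBP genes (Gbp2, Gbp3, Gbp4, Gbp5, Gbp7, Gbp8 and Gbp9) and 3 IRG genes (Irgm1, Irgm2 and Igtp). They were chosen by gene symbol, and all 10 were found among the 41079 genes listed. RNA-seq was performed on primary microglia of C57Bl/6N mice aged 1-3 days, the macrophages of the brain, in 3 control and 3 optimized libraries. Control cells were kept in serum-free DMEM/F12. Optimized cells had the same medium with 100 ng/mL each of human TGF-β1, human IL-34 and CX3CL1, and, as the study's methods add to the labels, cholesterol, insulin-transferrin-selenium and wells coated with collagen IV. All cells came from mixed glial flasks, each seeded with several brains. They were fed with medium conditioned by L-929 fibroblasts, were shaken off after weeks in these flasks, and met serum while they attached. The age of 1-3 days is that of the mice at isolation. The labels name no interferon among the treatments. The optimized condition was applied as a whole, so the parts played by its single components cannot be told apart.

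GBPs are large relatives of the dynamins that gather on membranes. In macrophages they coat the vacuoles of parasites and bacteria and the surface of bacteria in the cytosol, and they help caspase-11, the product of Casp4, to sense bacterial lipopolysaccharide. IRGs are smaller. The regulatory IRGM proteins Irgm1, Irgm2 and Igtp sit on the cell's own membranes and hold the effector IRGs inactive there, while the effectors load onto vacuoles and break them. Transcription of both families follows 2 kinds of promoter element. The gamma-activated site (GAS) serves the response to interferon gamma, and the interferon-stimulated response element (ISRE), which IRF proteins bind, serves the response to type I interferon.

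All 10 genes were lower under the optimized condition. The count test (edgeR's quasi-likelihood test, Benjamini-Hochberg adjusted over 14618 genes) called 10 of 10 lower and 0 higher, taking a gene as called where its adjusted p-value was under 0.05. Of all genes tested 29.8% were called, 15.2% lower and 14.7% higher. The falls ran from 1.76-fold for Gbp9 to 22.8-fold for Gbp5. A log2 fold change of -2 or less was reached by 5 of the 7 GBP genes and by 0 of the 3 IRG genes, against 1.35% of all genes tested. The median log2 fold change was -2.72 over the GBP genes and -1.13 over the IRG genes, beside 0.01 over all genes tested. These 3 IRG genes are all regulatory IRGM genes and do not stand for their family. Over the 9 other IRG genes tested the median was -2.66, and over the 2 other GBP genes tested it was -1.60. With library size alone in place of the TMM scaling, the median of all genes moved to -0.12 and the share of calls that were higher went from 49.1% to 32.3% (28.6% to 31.3% with limma on FPKM), and the 10 genes then lay between -4.64 and -0.94. No optimized library reached the lowest control library for any of the 10 genes in FPKM, the deposited fragment value scaled to gene length and library depth, which held for 32.7% of all genes tested in this direction.

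The libraries held between 20628148 and 27261839 counts. All 7 microglia markers were detected, and their summed level went from between 5879 and 5979 CPM (counts scaled to library size) in the control libraries to between 10323 and 12029 CPM in the optimized libraries, with 5 markers called higher and 2, Csf1r and Aif1, called lower. Cd3e, Cd3g and Cd8a of the T and NK cell markers were at 0 in every library, and the list, led by Cd4, summed to 20.0 to 21.5 CPM in control and 8.14 to 11.0 CPM in optimized libraries. Only Cd4 of this list was called, and lower (log2 fold change -1.17, edgeR adjusted p = 7.97e-05). Astrocyte markers summed to 28.5 to 30.1 CPM and 13.9 to 17.3 CPM. Of these only Aldh1l1 was called lower (means of 16.5 CPM in control and 4.64 CPM in optimized libraries), and 0 were called higher. Gfap had means of 4.18 CPM in control and 4.68 CPM in optimized libraries. Neuron markers summed to 2.05 to 3.41 CPM and 3.93 to 4.26 CPM, oligodendrocyte markers to 125 to 140 CPM and 156 to 190 CPM, and endothelial markers to 4.42 to 4.81 CPM and 4.77 to 6.29 CPM. Among these markers only Nefl of neurons (log2 fold change 2.30, edgeR adjusted p = 0.00189) and Mbp of oligodendrocytes (0.34, edgeR adjusted p = 0.0233) were called, both higher. Monocyte and dendritic cell markers, with Flt3 at 0 throughout, summed to 8.96 to 9.14 CPM and 5.03 to 9.33 CPM, and only Zbtb46 was called, lower (log2 fold change -0.79, edgeR adjusted p = 0.00183). Fibroblast markers summed to 34.5 to 48.8 CPM and 31.0 to 151 CPM, the highest value in optimized library 3, and without that library all 10 genes were still called lower. The part of these other cells in the falls was not tested. In bulk RNA, fewer cells that express a gene and less RNA per cell cannot be told apart. The study's methods call the replicates biological and independent, and the labels do not say which flasks or brains each library came from.

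On GRCm39, the build to which the reads were mapped, the 10 genes lie in 4 places. Gbp5 (chr3:142199739-142228105), Gbp7 (chr3:142236044-142255910), Gbp3 (chr3:142265731-142278979) and Gbp2 (chr3:142326349-142343779) lie in this order on the plus strand of chromosome 3. Gbp2b (chr3:142300602-142324940), a GBP gene outside the 10, lies between Gbp3 and Gbp2. Gbp8 (chr5:105162016-105287452), Gbp9 (chr5:105224332-105287452) and Gbp4 (chr5:105263633-105287609) lie on the minus strand of chromosome 5 with overlapping spans. Irgm1 (chr11:48752795-48763164, minus strand) stands apart on chromosome 11 from Igtp (chr11:58089840-58098417) and Irgm2 (chr11:58090444-58113615), which overlap on the plus strand. Each of Gbp4, Gbp8 and Gbp9 shares 107 exon bases with the others, and Igtp and Irgm2 share 162 exon bases. The shared bases make up between 1.1% (Gbp4) and 4.3% (Irgm2) of a gene's exon bases. Fragments from these bases cannot be assigned to 1 gene, so the values of these 5 genes carry that uncertainty.

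RefSeq promoter windows (250 bases before to 50 bases after the start, table build GRCm38.p6) were at hand for 7 of the 10 genes, and each matched GRCm39 once. Gbp4, Gbp8 and Gbp9 were not matched in the table. The ISRE letters, GAAA and again GAAA after any 2 bases, searched on both strands, occurred in 7 of 7 genes, where 3.99% of the 27025 genes with a window held them. The GAS letters TTCNNNGAA occurred in 4 of 7 genes, Gbp5, Gbp7, Igtp and Irgm2, where the share of all genes was 9.55%, and these 4 genes held both, beside 0.614% of all genes. No ISRE match overlapped a GAS match. The stretches of 30 bases below are shown because they hold these letters close to the RefSeq start. They are read 5′ to 3′ on the gene's strand with the matched letters in capitals. The RefSeq start is not the outer end of the gene spans given above, which are from GENCODE. Of the stretches listed here, the Gbp7 GAS pair lies before its gene's span and the Gbp7 ISRE crosses its first base. All others lie inside their gene's span, that of Irgm2 far inside, as its span begins at chr11:58090444.
Gbp5 ISRE, chr3:142202520-142202549, 175 to 146 bases before the start: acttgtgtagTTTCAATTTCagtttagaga
Gbp5 GAS, chr3:142202633-142202662, 62 to 33 bases before the start: tggccgttatTTCTCAGAAccaagcacaga
Gbp7 GAS pair, chr3:142235990-142236019, 107 to 78 bases before the start: tTTCCAGGAAaagcagaagcTTCTCAGAAa
Gbp7 ISRE, chr3:142236034-142236063, 63 to 34 bases before the start: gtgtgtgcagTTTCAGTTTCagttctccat
Gbp2 ISRE, chr3:142326355-142326384, 69 to 40 bases before the start: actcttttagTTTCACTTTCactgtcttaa
Gbp3 ISRE pair, chr3:142265753-142265782, 52 to 23 bases before the start: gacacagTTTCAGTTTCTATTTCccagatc
Irgm1 ISRE pair, chr11:48762255-48762284, minus strand, 37 to 8 bases before the start: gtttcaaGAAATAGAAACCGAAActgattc
Igtp GAS and ISRE, chr11:58090333-58090362, 49 to 20 bases before the start: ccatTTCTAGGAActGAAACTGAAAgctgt
Irgm2 GAS and ISRE, chr11:58105724-58105753, 79 to 50 bases before the start: ccatTTCCAGGAActGAAACTGAAAgctgt
In the 4 GBP windows the ISRE letters read on the opposite strand, and in the 3 IRG windows they read on the gene's own strand. In Igtp and Irgm2 the GAS ended 2 bases before the ISRE, whereas 25 bases lay between the nearest pair in Gbp7 and 71 bases in Gbp5. The Igtp and Irgm2 windows were identical at 97 of 100 bases around the ISRE. The second RefSeq window of Gbp3 held neither motif, and a further GAS of Gbp5 lay 245 bases before the start. These matches describe letters and do not show that a factor was bound.

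**Figure D1:**
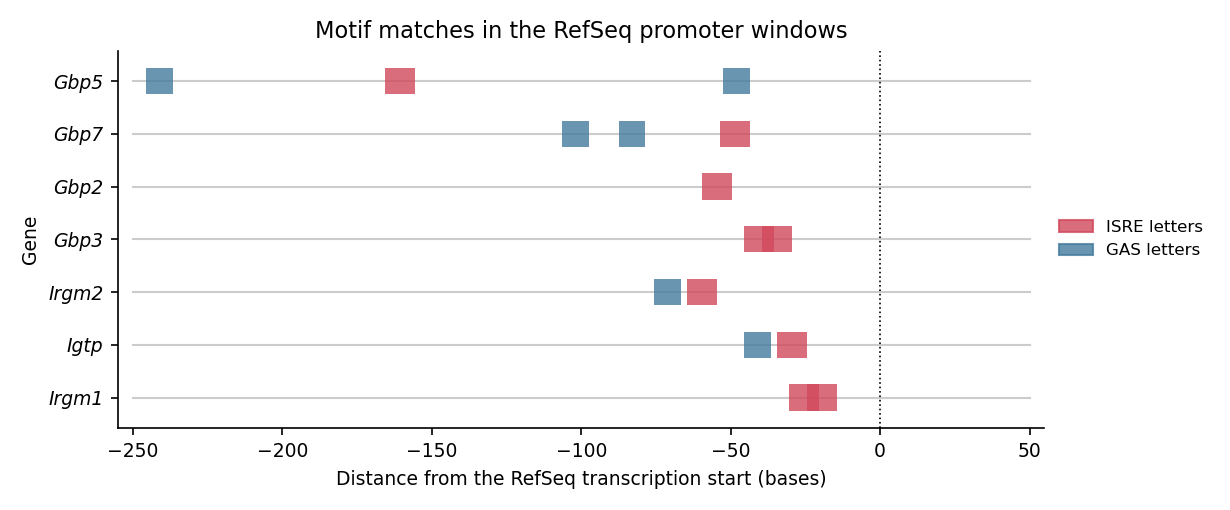
Matches to the ISRE letters (red) and the GAS letters (blue) in the RefSeq promoter windows of 7 genes. The horizontal axis gives the distance from the RefSeq transcription start in bases, and the first window of each gene has a line of its own. All 7 lines carry an ISRE and 4 carry a GAS, and the overlapping red bars of Gbp3 and Irgm1 are pairs of ISRE matches.

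Gbp2 and Gbp5 carry a C-terminal signal for a lipid (prenyl) anchor, which holds them on membranes. Gbp2 stood at 35.4, 44.9 and 40.4 FPKM in control libraries 1 to 3 and at 2.58, 2.32 and 3.13 FPKM in optimized libraries 1 to 3. The most abundant GBP of the control cells thus fell to a level that overlapped with Gbp9, with a log2 fold change of -3.78 ± 0.14 (SE, n = 3 per condition, edgeR adjusted p = 7.21e-08). Gbp5, which has been linked to assembly of the NLRP3 inflammasome, stood at 7.12, 8.26 and 6.98 FPKM in control and at 0.344, 0.260 and 0.285 FPKM in optimized libraries. Its optimized values rest on 23, 21 and 19 counts. The log2 fold change of Gbp5 was -4.51 ± 0.15 (SE, edgeR adjusted p = 4.93e-08), which ranked 15 from the lowest of the 14618 genes tested.

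Gbp7 has been linked to assembly of the phagocyte NADPH oxidase. It stood at 3.96, 5.75 and 4.46 FPKM in control and at 0.273, 0.120 and 0.241 FPKM in optimized libraries, the latter from 34, 18 and 30 counts. Its fall (log2 fold change -4.37 ± 0.24 SE, edgeR adjusted p = 8.88e-07) was close to that of Gbp5, its neighbour on the chromosome. Gbp3, the next gene along, stood at 7.93, 9.95 and 7.81 FPKM in control and at 1.24, 1.24 and 2.17 FPKM in optimized libraries. Optimized library 3 was the highest of its condition and still lay well below the lowest control library. Gbp3 fell 5.04-fold (log2 fold change -2.33 ± 0.20 SE, edgeR adjusted p = 1.75e-05).

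Of the 3 genes on chromosome 5, Gbp9 lay above Gbp4 and Gbp8 in every library, and the levels of Gbp4 and Gbp8 overlapped. Gbp9 stood at 7.51, 7.99 and 6.20 FPKM in control and at 4.45, 2.93 and 3.87 FPKM in optimized libraries, a log2 fold change of -0.81 ± 0.13 (SE, edgeR adjusted p = 0.00107). Its fitted change was the smallest of the 10, although it was not separated from that of Irgm1, and optimized library 2 was the lowest. Gbp4 was scarce, at 0.666, 0.575 and 0.612 FPKM in control and 0.259, 0.064 and 0.156 FPKM in optimized libraries. The optimized values of Gbp4 came from 30, 9 and 18 counts, and its log2 fold change of -1.85 had the largest error of the 10 (0.38 SE, edgeR adjusted p = 0.00425). Gbp8 was as scarce, at 0.680, 0.617 and 0.551 FPKM in control and 0.103, 0.077 and 0.072 FPKM in optimized libraries, from 10, 9 and 7 counts in the latter. Gbp8 fell 6.60-fold (log2 fold change -2.72 ± 0.29 SE, edgeR adjusted p = 7.25e-05).

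The log2 fold changes of the 3 IRGM genes lay between -1.18 and -0.98. Irgm1, whose product is found on mitochondria, the Golgi and lysosomes and is needed against mycobacteria, stood at 46.8, 53.7 and 50.1 FPKM in control and at 22.4, 20.2 and 26.8 FPKM in optimized libraries (log2 fold change -0.98 ± 0.11 SE, edgeR adjusted p = 8.68e-05). It was the most abundant of the 10 genes in each of the 6 libraries. Irgm2, a brake on caspase-11, stood at 20.1, 24.5 and 19.8 FPKM in control and at 8.80, 7.56 and 9.57 FPKM in optimized libraries (log2 fold change -1.18 ± 0.11 SE, edgeR adjusted p = 2.31e-05). Igtp, also called Irgm3 and found on the endoplasmic reticulum, stood at 20.2, 27.7 and 25.1 FPKM in control and at 9.80, 9.07 and 11.4 FPKM in optimized libraries (log2 fold change -1.13 ± 0.13 SE, edgeR adjusted p = 1.40e-04). All 3 thus remained well counted under the optimized condition, with at least 439 counts in every library.

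**Figure D2:**
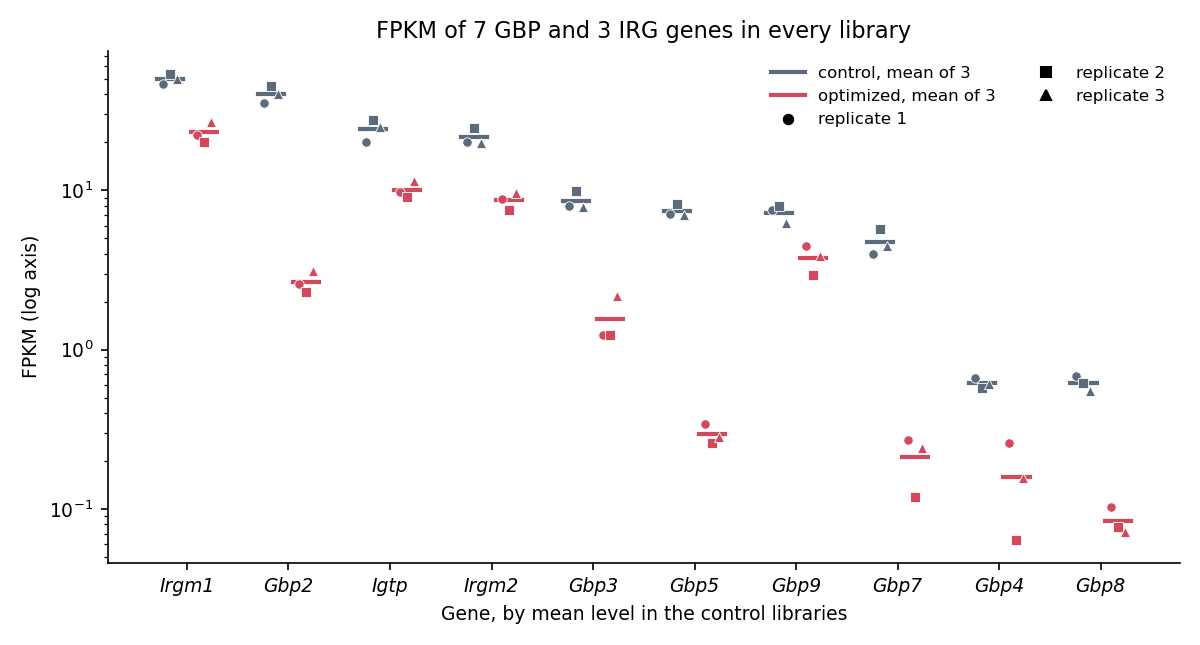
FPKM on a log axis for each of the 10 genes, ordered by their mean in the control libraries, with control libraries in grey and optimized libraries in red. Symbols are single libraries and bars are means of 3, and for every gene the 3 red symbols lie below the 3 grey ones, with the widest gaps for Gbp5, Gbp7 and Gbp2.

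Summed over the 7 GBP genes, the level was 69.4 ± 7.70 FPKM in control and 8.72 ± 1.52 FPKM in optimized libraries (SD, n = 3 per condition), 8.02-fold lower on the mean log2 scale. Summed over the 3 IRG genes it was 96.0 ± 9.46 FPKM and 41.9 ± 5.53 FPKM (SD, n = 3), 2.30-fold lower. The share of the IRG genes in the sum of the 10 was 58.0 ± 0.53% in control and 82.8 ± 1.21% in optimized libraries (SD, n = 3). The groups did not overlap in any of these 3 quantities, and the two-sided exact permutation test gave p = 0.1 for each, the smallest that 3 libraries against 3 allow, and also 0.1 after Benjamini-Hochberg adjustment over the 3 tests. The share is taken within a library, so the scaling of libraries does not enter it. Within the GBP sum, Gbp2 went from between 55.9% and 60.3% to between 27.9% and 33.1%, and Gbp9 from between 9.25% and 11.9% to between 39.0% and 48.2%. Irgm1 stayed the larger part of the IRG sum, at 50.7% to 53.7% in control and 54.6% to 56.1% in optimized libraries.

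**Figure D3:**
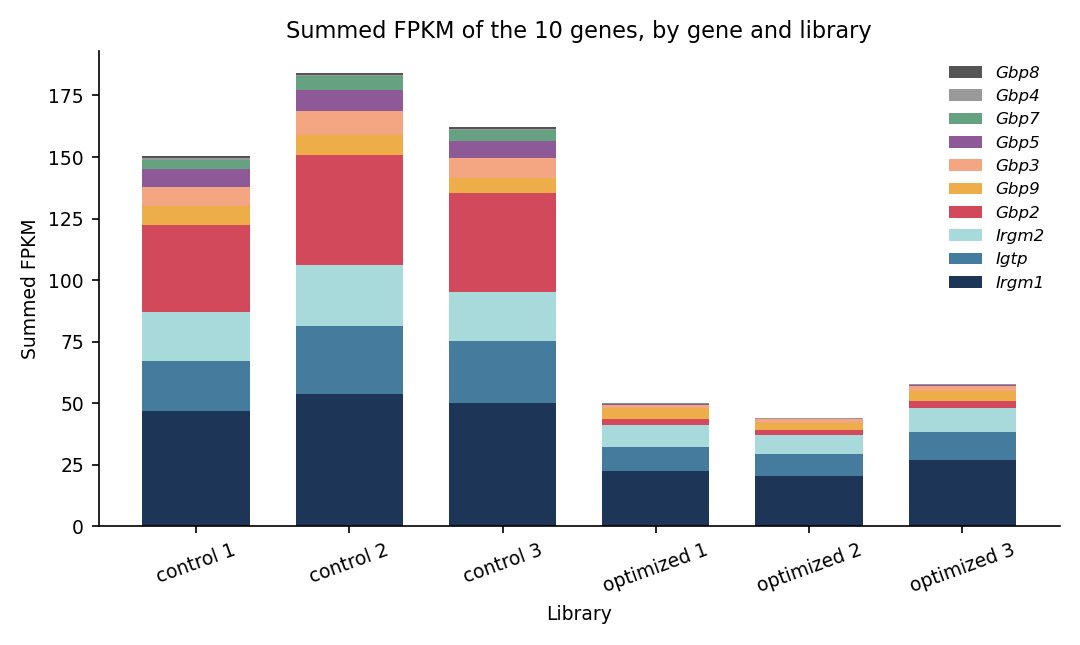
Summed FPKM of the 10 genes in each library, stacked by gene, with the 3 IRG genes in blue at the bottom and the 7 GBP genes above. The control columns reach 150 to 184 FPKM with a broad red band for Gbp2, and the optimized columns reach 43.9 to 57.7 FPKM, most of it IRG.

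The order of the levels changed with these falls. In control libraries Irgm1 was followed by Gbp2, then Igtp and Irgm2, then Gbp3, Gbp5 and Gbp9, then Gbp7, and last Gbp4 and Gbp8. In optimized libraries Irgm1 was followed by Igtp and Irgm2, then Gbp9 and Gbp2, then Gbp3, and last Gbp5, Gbp7, Gbp4 and Gbp8. Neighbours named together within such a step overlapped between libraries in FPKM, and neighbours in separate steps did not. Compared within each library, Igtp lay above Irgm2 throughout. The same held for Gbp3 above Gbp5 in control, and for Gbp9 above Gbp2, Gbp5 above Gbp7 and Gbp7 above Gbp4 in optimized libraries. Within libraries the order was mixed for Gbp5 and Gbp9 in control and for Gbp4 and Gbp8 in both conditions. These orders were not tested. In the order of fold change, the ratio of neighbouring genes within a library was compared for 9 pairs. The ratio of Gbp7 to Gbp2 and that of Gbp2 to Gbp8 did not overlap between conditions (exact permutation p = 0.1, adjusted p = 0.45 over the 9 pairs), and the other 7 ratios overlapped. The other steps, from Gbp5 to Gbp7 and from Gbp8 through Gbp3, Gbp4, Irgm2, Igtp and Irgm1 to Gbp9, were not resolved. The smallest p-value that this permutation test allows is 0.1, so it could call none of the 9 pairs. Control library 2 was the highest control for 8 of the 10 genes, and optimized library 2 was the lowest of its condition for 8 of the 10.

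Most other members of the 2 families fell too. Of 4 further GBP genes, the 2 tested fell, Gbp6 with a log2 fold change of -1.71 ± 0.12 (SE, edgeR adjusted p = 4.19e-06) and Gbp10 with -1.49 ± 0.16 (SE, edgeR adjusted p = 6.93e-05). Gbp2b had 2, 5 and 3 counts in control and 0 in each optimized library, and Gbp11 had at most 13 counts in any library, so neither was tested. Of the other IRG genes, 9 were tested, and 8 were called lower and 1 higher, and the median log2 fold change was -2.66. Among the effector IRGs, Iigp1 stood at 3.82, 5.04 and 4.03 FPKM in control and 0.272, 0.118 and 0.273 FPKM in optimized libraries, a log2 fold change of -4.16 ± 0.24 (SE, edgeR adjusted p = 1.34e-06). Ifi47 stood at 13.1, 16.4 and 13.5 FPKM in control and 1.84, 1.30 and 2.70 FPKM in optimized libraries (log2 fold change -2.76). Tgtp1 and Tgtp2 had log2 fold changes of -2.66 and -3.11, F830016B08Rik -2.99 and Gm12250 -1.88. These 6 genes lay lower than all 3 IRGM genes, a difference that was not tested as such. In the GENCODE annotation the symbol Gm12250 stands for both a long non-coding RNA and a transcribed processed pseudogene. It is thus not annotated there as a protein-coding effector. The pairs Tgtp1 and Tgtp2, and 9930111J21Rik1 and 9930111J21Rik2, are near copies that could share fragments, so their single values are uncertain.

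The remaining IRG calls were less firm. 9930111J21Rik1 and 9930111J21Rik2 had log2 fold changes of -0.71 and -0.73 (edgeR adjusted p = 0.0276 and 0.0250), and neither was called when control library 1, 2 or 3 or optimized library 3 was left out, which leaves 6 genes called lower. Irgq, an IRG relative that is not known to follow interferon, had a log2 fold change of 0.31 (edgeR adjusted p = 0.0463), and it was not called with DESeq2 (adjusted p = 0.0725), with library size alone (edgeR adjusted p = 0.270) or when any library but optimized library 1 was left out (edgeR adjusted p between 0.0580 and 0.179). Of 7 other IRG genes with a window, 4 held an ISRE and 3 a GAS. Ifi47, which fell by 2.76 on the log2 scale, 9930111J21Rik2 and Irgq held neither, 9930111J21Rik1 held an ISRE alone, and Gm12250 held both with 6 bases between the nearest pair. Tgtp1 and Tgtp2 carried the same arrangement as Igtp and Irgm2, with 2 bases between GAS and ISRE, shown here for comparison with the sites above.
Tgtp1 GAS and ISRE, chr11:48883136-48883165, minus strand, 92 to 63 bases before the start: ccatTTCCAGGAAtcGAAACTGAAAcctac
Tgtp2 GAS and ISRE, chr11:48955095-48955124, minus strand, 85 to 56 bases before the start: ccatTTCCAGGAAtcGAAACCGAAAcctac
Genes with this arrangement thus stood at log2 fold changes from -3.11 for Tgtp2 to -1.13 for Igtp. Gbp2 and Irgm1, both with ISRE matches and no GAS match in the window, stood at -3.78 and -0.98, and no difference between genes with and without these letters was tested.

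**Figure D4:**
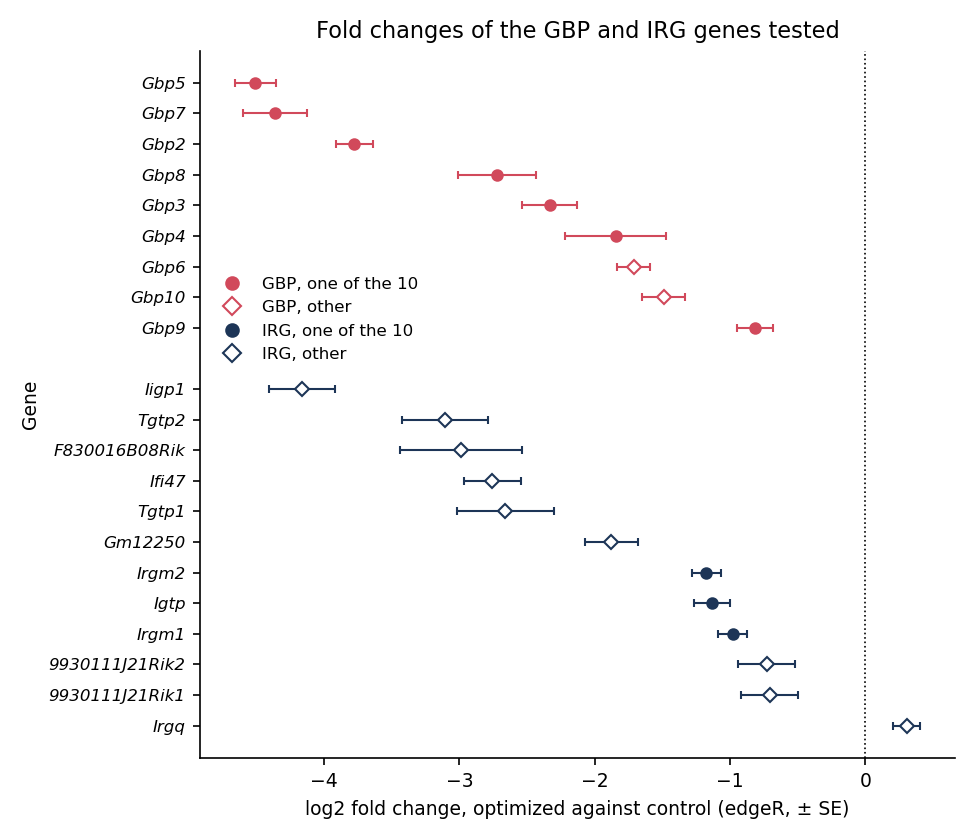
log2 fold change of the optimized against the control libraries (edgeR, bars are ± SE) for the GBP genes in red and the IRG genes in blue, with the 10 genes as filled circles and other tested members of the families as open diamonds. The GBP genes run from -4.51 to -0.81, the IRGM genes cluster near -1, 6 other IRG genes lie to their left and Irgq lies right of 0.

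More distant GTPases of the dynamin and interferon-inducible kinds moved less uniformly. Of 9 dynamin relatives, 2 fell and 1 rose, where the list's median was 0.16. Of all genes tested 15.2% were called lower and 14.7% higher, and these shares also stand beside the counts of the lists below. Those that fell were Mx1, an antiviral GTPase induced by type I interferon (log2 fold change -2.10, edgeR adjusted p = 2.37e-05), and Mx2 (-1.21, adjusted p = 5.08e-04), and the one that rose was Atl1, an atlastin that fuses tubules of the endoplasmic reticulum (1.23, adjusted p = 0.00293). Of the very large inducible GTPases, Gvin1 and Gvin2 were called lower at -0.77 each and Gvin3 had 0.38 (edgeR adjusted p = 0.119, and 0.0400 without optimized library 2). Gvin1 and Gvin2 are near copies with almost equal counts, and neither was called without control library 2 (adjusted p = 0.0617 and 0.0585).

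The ligand list holds interferon genes, without the interferon alpha genes, and cytokines that act with them. Ifng, the gene of interferon gamma, had 0 counts in every library, which allows up to 0.110 to 0.145 CPM in a library (3 counts, counting error only). Ifnb1 had 3 counts in control library 3, 1 in optimized library 1 and 0 in the other 4. Of 9 ligand genes listed, 6 were at 0 in all libraries, Ifng, Ifnk, Ifnl2, Ifnl3, Il12a and Il12b. Il18, a cytokine that drives interferon gamma production in lymphocytes, fell with a log2 fold change of -0.62 (edgeR adjusted p = 0.00289). Il27 had -0.69 (adjusted p = 0.0188), and was not called without control library 2 or 3 or optimized library 3 (adjusted p between 0.0538 and 0.0976).

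Of 4 interferon receptor genes 1 fell and 1 rose, and the median was -0.08 on the log2 scale. Ifngr1, the ligand-binding chain of the interferon gamma receptor, stood at 142, 151 and 136 FPKM in control and 49.7, 54.4 and 57.9 FPKM in optimized libraries, a log2 fold change of -1.26 ± 0.09 (SE, edgeR adjusted p = 5.82e-06). The receptor's other chain, Ifngr2, had -0.09 (adjusted p = 0.469, and 0.0465 by limma on log2(FPKM + 1), with a log2 fold change of -0.22). Of the type I interferon receptor, Ifnar2 rose (0.75, adjusted p = 5.80e-04) and Ifnar1 had -0.07 (adjusted p = 0.580). Of the kinases and factors next to the receptors, Stat2 had a log2 fold change of -0.91 (adjusted p = 1.84e-04), Tyk2 -0.58 (adjusted p = 0.00155) and Jak1 -0.26 (adjusted p = 0.0329), while Stat3 had 0.31 (adjusted p = 0.0197). Jak1 was not called when any library but optimized library 1 was left out (adjusted p between 0.0809 and 0.114). Stat3 was not called without any 1 control library or optimized library 3 (adjusted p between 0.0642 and 0.108). Nor was Stat3 called with library size alone (log2 fold change 0.18, edgeR adjusted p = 0.191) or by limma on FPKM (adjusted p between 0.207 and 0.21). Jak2 had 0.19 (adjusted p = 0.220). The next step of the pathway holds the IRF factors and the regulators that act with them. Irf1, which interferon gamma induces and which acts on GBP promoters, stood at 27.3, 31.5 and 27.8 FPKM in control and 7.93, 8.53 and 9.86 FPKM in optimized libraries (log2 fold change -1.58 ± 0.11 SE, adjusted p = 3.42e-06). Irf7, an amplifier of type I interferon, had -1.77 (adjusted p = 4.72e-06) and Batf2, a partner of Irf1, -3.04 (adjusted p = 3.26e-05). Over 10 such genes 7 were called lower and 1 higher, the latter Irf8, a factor of microglial identity, at 0.55 (adjusted p = 0.00109).

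Of 9 genes that restrain interferon signalling, 3 were called lower and 0 higher, and the median log2 fold change was -0.24. Usp18, a brake on the type I receptor that interferon itself induces, had -0.77 (edgeR adjusted p = 0.00262) and Ptpn6 -0.48 (adjusted p = 0.00454). Ptpn11 had -0.30 (adjusted p = 0.0398) and was not called when any library other than optimized library 1 was left out. Without optimized library 1, 5 of the 9 were called lower and 1, Socs3, higher. When any other single library was left out, 2 were called lower. Socs1 had 28, 55 and 41 counts in control and 17, 29 and 20 counts in optimized libraries (log2 fold change -0.72, adjusted p = 0.141).

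Other interferon targets were lower as well. Of 15 type I interferon targets, 15 were called lower. Their median log2 fold change was -1.60, with values from -2.60 for Rsad2, an antiviral enzyme, to -0.73 for Zbp1, a sensor of unusual nucleic acids. Of 12 interferon gamma targets tested, 10 were called lower and 0 higher, and the median was -0.83. With 1 library left out, 8 to 11 were called lower. Psmb8 of the immunoproteasome (-0.42, edgeR adjusted p = 0.0371) was not called without any 1 control library or optimized library 3 (adjusted p between 0.0517 and 0.134), nor the Fc receptor gene Fcgr1 (-0.34, adjusted p = 0.0465) without any 1 control library (adjusted p between 0.0658 and 0.146). Cxcl9, a chemokine for T cells that depends on interferon gamma, had 62, 79 and 117 counts in control and 2, 3 and 8 counts in optimized libraries (log2 fold change -4.06 ± 0.44 SE, edgeR adjusted p = 7.63e-05). Cxcl10 had -1.94, Psmb9, also of the immunoproteasome, -0.95 and Tap1 of the peptide transporter -0.89. The checkpoint ligand Cd274 (0.08, edgeR adjusted p = 0.571) was not called, nor was it with library size alone (-0.05, edgeR adjusted p = 0.802). The lysosomal reductase Ifi30 (0.41, edgeR adjusted p = 0.0719) was not called either. Ifi30 was called higher with DESeq2 (adjusted p = 0.0419) and without optimized library 1 (edgeR adjusted p = 1.71e-04).

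**Figure D5:**
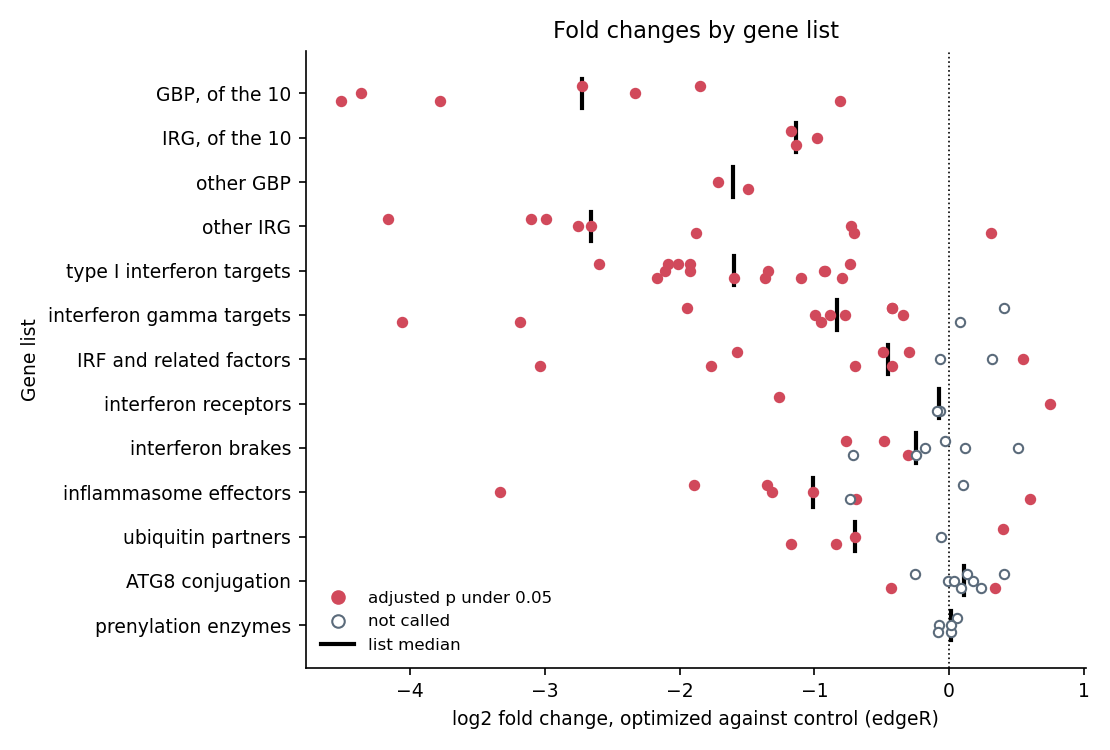
log2 fold change of the optimized against the control libraries (edgeR) for the genes of each list shown, with red points called at an adjusted p-value under 0.05, open points not called and black bars at the list medians. The GBP genes and the other IRG genes reach furthest left, the type I interferon targets are all red and left of 0, and the prenylation enzymes are all open and near 0.

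Genes of the proteins with which GBPs and IRGs work were called in both directions. Of 9 inflammasome genes, 6 were called lower and 1 higher, and the median log2 fold change was -1.01. Casp4 fell by 1.89 on the log2 scale (32.4, 33.7 and 34.8 FPKM in control and 8.43, 6.94 and 9.42 FPKM in optimized libraries, edgeR adjusted p = 1.63e-06). Casp1 fell by 1.31, Nlrp3 by 1.01, the pore-forming Gsdmd by 0.69 and the membrane-rupture protein Ninj1 by 1.35. Il1b, the cytokine that caspase-1 matures, fell by 3.33 (adjusted p = 2.20e-07). Aim2, a DNA sensor whose activation by cytosolic bacteria GBPs aid, rose by 0.60 (adjusted p = 0.00367), and was not called by limma on log2(FPKM + 1) or log2(FPKM + 0.1), at adjusted p of 0.0607 and 0.0533. The adaptor Pycard had 0.11 (edgeR adjusted p = 0.628), or -0.03 with library size alone (edgeR adjusted p = 0.861).

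Of 10 genes of the ATG8 conjugation system, which directs GBPs and IRGs to vacuoles, 1 was called lower and 1 higher. Of all genes tested 15.2% were called lower and 14.7% higher. The list's median log2 fold change was 0.11, or -0.03 with library size alone. Both calls, Gabarapl1 at -0.43 and Map1lc3b at 0.34, were lost without control library 2, control library 3 or optimized library 3. That of Map1lc3b was also lost without control library 1 or optimized library 2. Nor was Map1lc3b called with library size alone (edgeR adjusted p = 0.114) or by limma on FPKM (adjusted p between 0.166 and 0.17). Without optimized library 1 the count of genes called higher was 4. The 5 prenylation genes, which include the farnesyltransferase subunits Fnta and Fntb, lay between -0.08 and 0.06 with edgeR adjusted p-values from 0.662 to 0.972, and their median moved from 0.01 to -0.12 with library size alone. Of 5 tested ubiquitin and adaptor partners of marked vacuoles, 3 were called lower, Rnf213 (-1.17), Trim21 (-0.84) and Sqstm1 (-0.70). The 1 called higher was Traf6 at 0.40 (adjusted p = 0.0327, and 0.0867 to 0.121 without any 1 control library or optimized library 3). Traf6 was not called with library size alone (log2 fold change 0.28, edgeR adjusted p = 0.201) or by limma on FPKM (adjusted p between 0.247 and 0.273).

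Among genes outside these lists and with a name other than a gene-model number, those whose log2(CPM + 0.5) followed the mean profile of the 10 genes most closely over the 6 libraries were Tbcel, Smpdl3b, Mlkl, Aurkb and Clec4a2, with Pearson's r between 0.9991 and 0.9996 among 9699 genes with a mean of at least 5 CPM. These points share libraries and fall into 2 conditions, and 401 of the 9699 genes had an r above 0.98. The 5 genes fell with log2 fold changes from -3.34 for Clec4a2 to -0.67 for Tbcel.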

How the data were processed

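RNA of 6 libraries, 3 control and 3 optimized, was analysed. Read pairs were aligned by the authors in Galaxy (HISAT2, mm39, the same assembly as GRCm39) and assigned to genes by featureCounts, and the deposited raw counts are not normalized. The authors also deposited FPKM values of the same genes. How FPKM was computed, the annotation, the versions, the strand setting and the handling of fragments on several genes are not given in the sources used here.

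Conditions and replicate numbers were taken from the labels. Counts were filtered with filterByExpr, scaled by TMM and compared with the quasi-likelihood test of edgeR 4.0.16 in R 4.3.3, with Benjamini-Hochberg adjustment over the 14618 genes tested and a threshold of 0.05. CPM were TMM-scaled. The SE was taken as the absolute log2 fold change over the root of F. Single sums were compared by exact permutation tests in scipy 1.17.1. Alternatives were DESeq2 1.42.0, limma 3.58.1 on log2(FPKM + 0.1) or log2(FPKM + 1), other scalings and filters, and each library left out. Fold changes from FPKM with a pseudocount understate the change of low genes. The count and limma tests were checked on simulated data, in which a small part of the genes changed, in directions drawn at random. They recovered 79% to 82.9% of log2 fold changes of size 1 and 93.7% to 97.9% of those of size 2. Of the calls, 2.17% to 4.97% were false. With so few genes changed, the check does not address the choice of scaling. Replicates differed by more than sampling noise (chi-square per degree of freedom 10.7 to 78.8).

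Named are all 10 genes, genes of the lists by role (1 list gene is not reported here), and the 5 most alike genes with a mean of at least 5 CPM. The genes and lists were chosen with earlier results of these data known. Positions are from GENCODE M39, promoter sequences from RefSeq.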

Additional observations from a re-analysis of the deposited data

How the results depend on the processing

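All 146 alternative fold changes of the 10 genes kept their direction and their call. Gbp4 and Gbp8 could not be fitted with at least 10 counts in every library or a mean FPKM of at least 1, where 8 of 8 remaining genes were called lower. With limma on log2(FPKM + 1) the log2 fold changes were smaller for low genes, at -2.70 for Gbp5, -2.23 for Gbp7, -0.58 for Gbp8 and -0.48 for Gbp4, since the pseudocount exceeds their optimized levels. Over the leave-one-out fits the GBP sum changed by -3.10 to -2.85 and the IRG sum by -1.30 to -1.11 on the log2 scale, and the IRG share by 24.2 to 25.4 percentage points, while 10 of the 10 genes were called lower and 0 higher each time. Of all genes, 4360 were called, 3249 to 5234 with 1 library left out, and 2873 at an adjusted p-value under 0.01. A pairing of libraries by replicate number was not shown, with correlations of deviations of 0.352, -0.024 and 0.213 for numbers 1 to 3. Not every library correlated best with its own number. Correlations over so few libraries cannot exclude a pairing, and the labels do not say whether same-numbered libraries belong together. With the replicate number as a block 4924 genes were called, and 10 of the 10 lower. Depth limits Gbp4, Gbp5, Gbp7 and Gbp8, which had under 50 counts in every optimized library.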
